A study of Mus musculus with 6 samples.

Results

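The genes described here are 39 genes of the actin cytoskeleton and targets of serum response factor (SRF), taken as a named set from the 21887 protein-coding genes of the mouse gene table. A peak was given to a gene when its summit, the highest point of the peak, lay nearest to that gene's annotated start or end and at most 100 kb away. A summit at most 1 kb from an end is called a gene-end peak and a farther one a distal peak. Of the 39 genes, 37 had a peak in at least 1 library, and 32 had a gene-end peak, which 50.2% of coding genes had. Actg2, an actin of smooth muscle, and Pfn1, the gene of the actin-binding protein profilin, had no peak in any library.

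The assay was ATAC-seq, which uses a transposase to cut accessible DNA and tag it with sequencing adapters. It was run on mouse brown pre-adipocytes, the precursors of heat-producing fat cells. The day 1 group holds 3 libraries whose treatment label is brown adipocyte differentiation at day 1, and the day 0 group holds 3 libraries whose treatment label is WT. All 6 carry the label BAT for both cell line and source, and no genotype is stated for day 1 beyond that treatment label. Whether the replicates were separate cultures is not stated, so the p-values given here reflect how far these libraries differ, and that spread could be technical. Coordinates are those of mm10.

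Actin monomers assemble into filaments that myosin pulls on and that cross-linkers and focal adhesions anchor to the membrane. A fall in free actin monomers during assembly releases the MRTF coactivators, which bind SRF and switch on many of the genes that encode the filament itself. SRF binds a DNA element called the CArG box, a run of A and T flanked by a pair of C and a pair of G. In fat precursors, filamentous actin and MRTF with SRF are known to hold back adipocyte formation.

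Depth and peak number differ between the days. The day 1 libraries held 4919755, 5603667 and 7302457 fragments and 20069, 23274 and 12556 peaks. In the day 0 libraries there were 11011889, 8127635 and 9160156 fragments and 55511, 41993 and 39211 peaks. Day 1 replicate 3 stood apart, with the most fragments of its day and the fewest peaks. The main counts are therefore given in the deposited lists and in equal lists, which keep the 12556 strongest peaks of each library by q value. In an equal list a missing peak means a lower rank or no call, neither of which shows a lack of signal. The equal list of day 1 replicate 3 is its whole deposited list, so there it means no call. In the deposited lists, of 13 markers of brown pre-adipocytes and fat precursors, 4, 5 and 3 had a gene-end peak at day 1, against 8, 6 and 6 at day 0. Among 9 markers of mature brown adipocytes there were 1, 3 and 2 at day 1, against 2, 2 and 2 at day 0. Smooth muscle and pericyte markers, which share part of the contractile program, had 2, 4 and 3 of 11 at day 1 and 7, 2 and 3 at day 0. Skeletal muscle markers had 0, 1 and 0 of 10 at day 1 and 2, 1 and 0 at day 0, endothelial markers 0, 1 and 0 of 8 at day 1 and 1, 1 and 1 at day 0, and immune markers 0, 0 and 0 of 7 at day 1 and 2, 1 and 2 at day 0. In equal lists the precursor markers had 2, 2 and 3 at day 1, against 2, 3 and 2 at day 0, the mature adipocyte markers 1, 1 and 2, against 0, 0 and 0, the smooth muscle markers 2, 2 and 3, against 1, 1 and 1, and the other 3 lists 0 in every library. The part of cell makeup in the results below was not tested.

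The CArG box and the promoter peaks are shown first, since the set was chosen in part as targets of SRF. RefSeq promoter windows of build GRCm38.p6, the assembly that mm10 names, run from 250 bases before to 50 bases after a transcription start, and 37 such windows matched 31 of the 39 genes. Ablim3, Actb, Actg2, Diaph1, Pxn, Rock1, Tagln and Tln2 were not matched. A CArG box, searched on both strands, lay in 7 of the 37 windows (18.9%) and in 535 of all 32851 windows (1.63%). The higher share may follow from how the set was chosen and does not depend on these libraries. These 7 windows belong to Actg1, Cnn2, Filip1l, Myl6, Myl9, Srf and Vcl. The windows of the 5 that also have a gene-end peak follow, with Srf and Acta2 added after their values were seen. Each is given 5′ to 3′ on the strand of the gene, with CArG boxes in capitals. For Acta2 the capitals mark a pair of looser matches, in which 1 of the inner 6 bases is G or C. In mm10 the windows are chr14:20929148-20929447 (plus strand) for Vcl, chr10:128492960-128493259 (minus) for the second start of Myl6, chr2:156775214-156775513 (plus) for Myl9, chr16:57548992-57549291 (plus) for an internal start of Filip1l, chr11:120348446-120348745 (minus) for Actg1, chr17:46556113-46556412 (minus) for Srf and chr19:34255324-34255623 (minus) for Acta2.
Vcl: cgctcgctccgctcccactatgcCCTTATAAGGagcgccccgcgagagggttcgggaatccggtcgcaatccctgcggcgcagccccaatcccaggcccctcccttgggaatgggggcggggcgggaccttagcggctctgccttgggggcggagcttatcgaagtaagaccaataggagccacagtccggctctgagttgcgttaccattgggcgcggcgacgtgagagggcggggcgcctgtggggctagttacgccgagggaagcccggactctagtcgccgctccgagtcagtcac
Myl6: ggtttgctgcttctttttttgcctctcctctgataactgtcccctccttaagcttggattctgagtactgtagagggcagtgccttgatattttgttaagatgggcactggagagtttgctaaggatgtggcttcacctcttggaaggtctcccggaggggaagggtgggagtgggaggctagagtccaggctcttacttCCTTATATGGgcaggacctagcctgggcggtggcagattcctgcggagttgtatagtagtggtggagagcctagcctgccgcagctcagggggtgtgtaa
Myl9: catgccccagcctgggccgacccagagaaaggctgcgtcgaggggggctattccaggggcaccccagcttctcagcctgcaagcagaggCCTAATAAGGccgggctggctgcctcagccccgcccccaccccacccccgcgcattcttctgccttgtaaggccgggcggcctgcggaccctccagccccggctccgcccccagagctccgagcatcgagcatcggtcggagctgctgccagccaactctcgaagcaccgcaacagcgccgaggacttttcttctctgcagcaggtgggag
Filip1l: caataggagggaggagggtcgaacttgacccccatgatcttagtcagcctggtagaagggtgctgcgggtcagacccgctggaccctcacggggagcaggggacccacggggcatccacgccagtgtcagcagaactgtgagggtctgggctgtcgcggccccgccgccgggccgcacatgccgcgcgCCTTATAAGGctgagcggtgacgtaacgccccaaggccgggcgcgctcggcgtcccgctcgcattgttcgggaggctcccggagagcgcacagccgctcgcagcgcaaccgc
Actg1: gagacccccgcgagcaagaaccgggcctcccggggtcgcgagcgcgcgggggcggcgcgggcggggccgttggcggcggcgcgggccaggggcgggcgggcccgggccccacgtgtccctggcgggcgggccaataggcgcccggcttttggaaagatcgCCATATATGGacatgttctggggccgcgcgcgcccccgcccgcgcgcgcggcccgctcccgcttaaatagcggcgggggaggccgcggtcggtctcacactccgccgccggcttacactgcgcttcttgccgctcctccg
Srf: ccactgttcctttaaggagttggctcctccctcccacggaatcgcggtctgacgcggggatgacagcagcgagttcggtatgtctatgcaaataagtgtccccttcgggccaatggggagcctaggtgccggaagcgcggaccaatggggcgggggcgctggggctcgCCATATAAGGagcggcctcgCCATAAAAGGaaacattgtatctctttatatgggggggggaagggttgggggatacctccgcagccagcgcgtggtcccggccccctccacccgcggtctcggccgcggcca
Acta2: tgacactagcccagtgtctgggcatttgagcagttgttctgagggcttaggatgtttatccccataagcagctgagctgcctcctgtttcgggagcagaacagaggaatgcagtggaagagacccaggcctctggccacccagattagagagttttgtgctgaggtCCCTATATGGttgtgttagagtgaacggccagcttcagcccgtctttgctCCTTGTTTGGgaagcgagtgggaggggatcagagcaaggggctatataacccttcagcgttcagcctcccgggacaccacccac

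Of the 7 windows with a CArG box, 3 overlapped a peak in all 6 libraries, those of Vcl, Srf and the internal start of Filip1l. Another 2 overlapped one in 0 of 3 day 1 and 3 of 3 day 0 libraries, those of Myl9 and the second start of Myl6. The windows of Actg1 and Cnn2 overlapped none in any library. Of the 30 windows without a CArG box, 10 overlapped a peak in all 6 libraries, 5 in 0 day 1 and 3 day 0 libraries, and 5 in none. Overlap with peaks was counted only for the windows of the set, so no share over all windows stands beside these counts. The looser form lay in 5 of the 37 windows (13.5%), belonging to Acta2, Lmna, Myl9 and Tpm3, and in 8.50% of all windows. Other motifs searched on both strands were GGGCGG, in 64.9% of the 37 windows and 35.7% of all, CATTCC in 27.0% and 14.7%, TGANTCA in 13.5% and 7.81%, and TATAAA in 10.8% and 13.6%. Matches of different motifs may overlap, and a match describes the letters and not binding.

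Gene-end peaks of the set were fewer on day 1 in the deposited lists and did not separate the days in the equal lists. In the deposited lists, 17, 19 and 14 of the 39 genes had a gene-end peak in the day 1 libraries, against 30, 27 and 28 in the day 0 libraries. Every day 1 library lay below every day 0 library. Over all coding genes the shares were 34.2, 37.0 and 27.6% at day 1, against 45.3, 41.7 and 39.8% at day 0, so they were lower on day 1 as well. In equal lists the set had 15, 16 and 14 genes at day 1 and 13, 13 and 14 at day 0. The days touched at 14. Over all coding genes the equal-list shares were 27.4, 29.1 and 27.6% at day 1, against 23.2, 23.1 and 22.1% at day 0, so there every day 1 library lay above every day 0 library. In the set the difference of means was 1.67 genes with SDs of 1.00 at day 1 and 0.577 at day 0 (n = 3 each). Without day 1 replicate 3, equal lists of 20069 peaks gave means of 18 genes at day 1 and 19 at day 0. In the deposited lists, gene-end peaks nearer the 5′ end of a gene numbered 46 over the day 1 libraries and 82 over the day 0 libraries. Those nearer the 3′ end numbered 0 and 14, and those at genes without a known strand 7 and 16. This split by end was not made over all coding genes.

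Of the 39 genes, 13 were called at a gene end in all 6 libraries, where 23.5% of coding genes were called in all 6. By any number of libraries, 18 were called in fewer day 1 than day 0 libraries and 0 in more. That count was not made over all coding genes, whose shares with a gene-end peak were also lower on day 1. A difference of 2 or more libraries toward day 0 held for 11 of 39 genes, against 8.44% of coding genes, and toward day 1 for 0, against 0.69%. A call in 0 of 3 day 1 and 3 of 3 day 0 libraries held for 6 genes, Acta2, Tagln, Tagln2, Myl9, Cfl1 and Ablim3, against 2.41% of coding genes. Among genes called in 3 of 3 day 0 libraries it was 6 of 25, against 6.66%. In equal lists 0 of 39 genes had that pattern, against 0.283% of coding genes, and a difference of 2 or more libraries toward day 1 held for 2 genes, Cnn3 and Rock2, against 5.72%. Both were in 3 day 1 and 0 day 0 equal lists, as were 1.57% of coding genes, and 0 genes differed by 2 or more libraries toward day 0, against 1.14%.

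**Figure D1:**
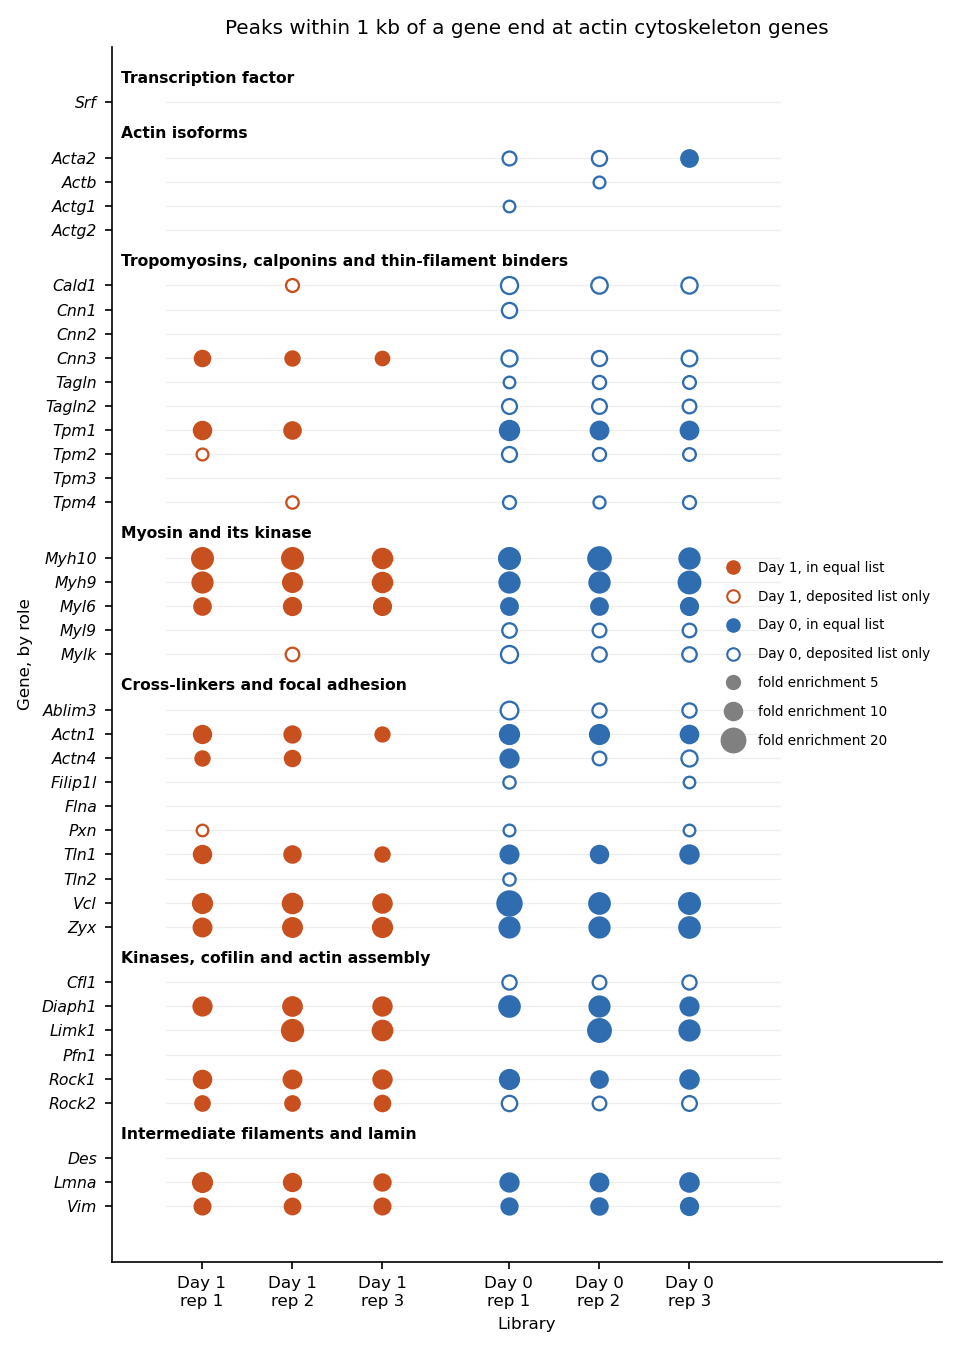
Gene-end peaks of the 39 genes by library, with day 1 libraries on the left and day 0 libraries on the right. Each circle is the strongest peak within 1 kb of a gene end, its area grows with the authors' fold enrichment, filled circles are in the equal lists and open circles in the deposited lists only. Acta2, Tagln, Tagln2, Myl9, Cfl1 and Ablim3 have circles in 3 day 0 and 0 day 1 libraries, and 13 genes have circles in all 6.

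Day 0 peaks were then scaled to the signal of the day 1 libraries, to ask which of them would still pass, a step added after the data were seen. Day 0 summit heights were scaled to each day 1 library by the median height of regions shared by all 6 libraries. Fragment number did not scale the heights, but it did scale the background they were set against. Of the 25 genes called in 3 of 3 day 0 libraries, 20 were projected to pass in all 3 day 1 libraries. Of those 20, 3 were called in none of them, Acta2, Tagln2 and Ablim3, against 3.65% of 6763 coding genes projected in the same way. Tagln, Myl9 and Cfl1 were projected to pass in 2 of 3 day 1 libraries. In the same 20, 13 were called in all 3 day 1 libraries, against 73.1% of the projected coding genes.

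Among the actins, none had a gene-end peak on day 1. Acta2, which encodes smooth muscle actin, had summit heights of 18, 21 and 19 fragments in the day 0 libraries and no gene-end peak in any day 1 library. Its day 0 fold enrichment, the authors' ratio of height to local background, was 7.19 ± 1.51 (SD, n = 3). Scaled by library medians, its day 0 heights correspond to 11.8, 14.4 and 8.53 fragments in day 1 replicates 1, 2 and 3, and scaled by fragment number 10.3, 11.8 and 15.3. The region, chr19:34254580-34255735, covers the promoter window printed above. Actb, the cytoplasmic beta actin, had a gene-end peak in 0 day 1 libraries and 1 day 0 library, and so did Actg1, the gamma actin. The Actg1 peak, of 11 fragments, lay beyond the 3′ end of the gene and not at its promoter. Farther than 1 kb from an end, each of these 2 genes had a region called in 3 day 0 and 2 day 1 libraries. That of Actb, 1.14 kb inside its end, had 17 and 16 fragments at day 1 and 32, 24 and 19 at day 0. The Actg1 region, 1.92 kb outside the gene, had 19 and 21 at day 1 and 36, 39 and 28 at day 0. Distal peaks of the 4 actin genes numbered 15 over the day 1 libraries and 30 over the day 0 libraries, and 9 and 6 in equal lists.

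Genes of thin-filament proteins had the largest gap in number of deposited gene-end calls among the role groups. The 10 tropomyosin, calponin, transgelin and caldesmon genes had 8 of 30 possible gene-end calls at day 1 and 22 of 30 at day 0. In equal lists they had 5 at day 1 and 3 at day 0. Tagln, which encodes transgelin (SM22), a classical SRF target, had heights of 11, 12 and 9 fragments at day 0 at chr9:45935793-45936123 and no gene-end peak at day 1. Tagln overlaps Pcsk7 in the gene table, at its other end. Tagln2, a transgelin of non-muscle cells, had 38, 29 and 18 fragments at day 0 at its promoter and no peak at day 1, although 16.1, 19.7 and 11.6 fragments were projected by library medians. All 4 regions of Tagln2, 3 of them at gene ends, were called in every day 0 and no day 1 library.

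Tpm2 and Tpm4 encode tropomyosins, which lie along the filament and gate myosin. At the Tpm2 promoter, chr4:43523401-43523781, heights were 31, 18 and 12 fragments at day 0, with no day 1 peak. The gene's only day 1 gene-end call, of 8 fragments in 1 library, was another peak near a gene end. The Tpm4 promoter, chr8:72134881-72135338, had 21, 15 and 14 fragments at day 0 and no day 1 peak. Its only day 1 gene-end call, of 11 fragments in 1 library, was likewise another peak. Both were projected to pass in 2 of 3 day 1 libraries. At its gene end, Cald1, caldesmon, an inhibitor of actin and myosin interaction, was called with 7 fragments in 1 day 1 library and with 27, 23 and 18 at day 0. It was projected to pass there in all 3 day 1 libraries. Per 1000000 fragments those heights were 1.25 in the 1 day 1 library with a call, and 2.45, 2.83 and 1.97 at day 0. The window of a second Cald1 start, chr6:34709194-34709493, overlapped peaks of 12 and 7 fragments in day 1 replicates 1 and 3. At day 0 it overlapped peaks of 29, 31 and 21 fragments. Within 1 kb of its promoter starts, Cald1 was called in 3 day 1 and 3 day 0 libraries.

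Cnn3, the calponin of non-muscle cells, went the other way by rank only. Its gene end was in all 3 equal lists of day 1 and in 0 of day 0. Its heights were 15, 15 and 10 fragments at day 1 and 31, 23 and 20 at day 0, with a peak in every deposited list. In the fit of heights described further on, its log2 difference was 0.00 (SE 0.192, adjusted p = 0.9996 by limma). Tpm1 was called in 2 day 1 and 3 day 0 libraries, Cnn1 in 0 and 1, and Cnn2 and Tpm3 in none at a gene end. The annotated internal start of Tpm3, however, held a peak in all 6 libraries.

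Myosin genes were mostly called on both days. Myh9 and Myh10, the heavy chains of non-muscle myosin, and Myl6, an essential light chain, had gene-end peaks in all 6 libraries. Myl9, the regulatory light chain that myosin light chain kinase phosphorylates, had heights of 13, 10 and 9 fragments at day 0 and no gene-end peak at day 1. Mylk, that kinase, was called with 7 fragments in 1 day 1 library and with 18, 10 and 9 at day 0. The second start of Myl6, with its CArG box, had 49, 29 and 27 fragments at day 0 and no day 1 peak, while the first start had 40, 53 and 34 fragments at day 1 and 87, 70 and 56 at day 0.

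Cross-linkers and focal adhesion genes had 15 of 30 possible calls at day 1 and 23 of 30 at day 0, and 14 and 13 in equal lists. Vcl (vinculin), Tln1 (talin), Zyx (zyxin) and Actn1 (alpha-actinin), which link filaments to adhesions, were called in all 6 libraries. At the Vcl promoter, with its CArG box, heights were 32, 46 and 27 fragments at day 1 and 103, 63 and 41 at day 0. Relative to the median height of its library, the Vcl values were 1.78, 2.09 and 2.08 at day 1, against 2.42, 1.97 and 1.71 at day 0, and the days overlapped. Ablim3, an actin-binding LIM protein gene, had 24, 10 and 10 fragments at its gene end at day 0 and no peak at day 1. Of its 6 regions, 5 were called in every day 0 and no day 1 library. Actn4 was called in 2 day 1 and 3 day 0 libraries, Pxn (paxillin) in 1 and 2, Filip1l in 0 and 2, and Tln2 in 0 and 1. Flna, filamin A, had no gene-end peak, but its promoter window overlapped a peak in 2 day 1 and 3 day 0 libraries.

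Among kinases and actin assembly factors, Rock1 and Rock2, kinases that raise myosin activity, and Diaph1, a formin that elongates filaments, were called in all 6 libraries. Rock2 heights were 15, 17 and 14 fragments at day 1 and 35, 22 and 20 at day 0, and it was in all 3 equal lists of day 1 and 0 of day 0. Limk1, the kinase that inactivates cofilin, had a summit within 1 kb of its end in 2 libraries of each day, but the region there, chr5:134688648-134689392, held a peak in all 6. Cfl1, cofilin itself, which severs filaments, had 39, 29 and 27 fragments at day 0 and no peak at day 1. Its projected heights were 16.5, 20.2 and 11.9 fragments by library medians and 16.5, 18.8 and 24.5 by fragment number. Among intermediate filament and lamina genes, Vim and Lmna were called in all 6 libraries and Des in none.

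SRF itself had the same number of peaks on both days. Its annotated promoter start lies more than 1 kb from the end in the gene table, so its promoter peak counts as distal. Each of its 2 regions was called in all 6 deposited and all 6 equal lists. At the promoter region, chr17:46556087-46556478, heights were 28, 32 and 18 fragments at day 1 and 85, 68 and 47 at day 0. Relative to the library median they were 1.56, 1.45 and 1.38 at day 1, against 2.00, 2.13 and 1.96 at day 0. The days did not overlap, and the log2 difference of -0.47 (SE 0.187) had an adjusted p of 0.116 by limma. The second region, inside the gene at chr17:46552830-46553420, is among those that passed below. Counting within 1 kb of RefSeq promoter starts instead of gene ends, 20, 20 and 16 of 31 genes were called at day 1 and 27, 25 and 25 at day 0, a choice made after seeing the data. The shares over all coding genes on that count were 41.8, 44.8 and 34.4% at day 1, against 52.2, 49.1 and 47.1% at day 0. In equal lists the count turned round, with 17, 17 and 16 of the 31 genes at day 1, against 14, 14 and 15 at day 0, and all coding genes did so too, with 34.1, 36.3 and 34.4%, against 29.1, 28.8 and 27.5%.

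Distal peaks of the set were fewer on day 1, and so were distal peaks of all genes. The day 1 libraries held 55, 63 and 27 such peaks and the day 0 libraries 182, 145 and 140. Per 1000000 fragments this came to 11.2, 11.2 and 3.70 at day 1, against 16.5, 17.8 and 15.3 at day 0. As a share of all distal peaks they made up 0.528, 0.502 and 0.495% at day 1, against 0.499, 0.548 and 0.572% at day 0, and these ranges overlapped. Equal lists held 35, 27 and 27 at day 1 and 32, 34 and 31 at day 0. In the deposited lists the mean number of distal peaks was 3.22 times as high on day 0 for the set and 3.08 times for all genes. A count by gene was made only for the set. Of the 39 genes, 33 had fewer distal peaks on day 1 and 0 had more in the deposited lists. In equal lists 10 had fewer, 10 had more and 19 had the same number. Filip1l, which encodes a filamin-interacting protein, had the most, with 4, 5 and 4 at day 1 and 22, 17 and 18 at day 0.

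**Figure D2:**
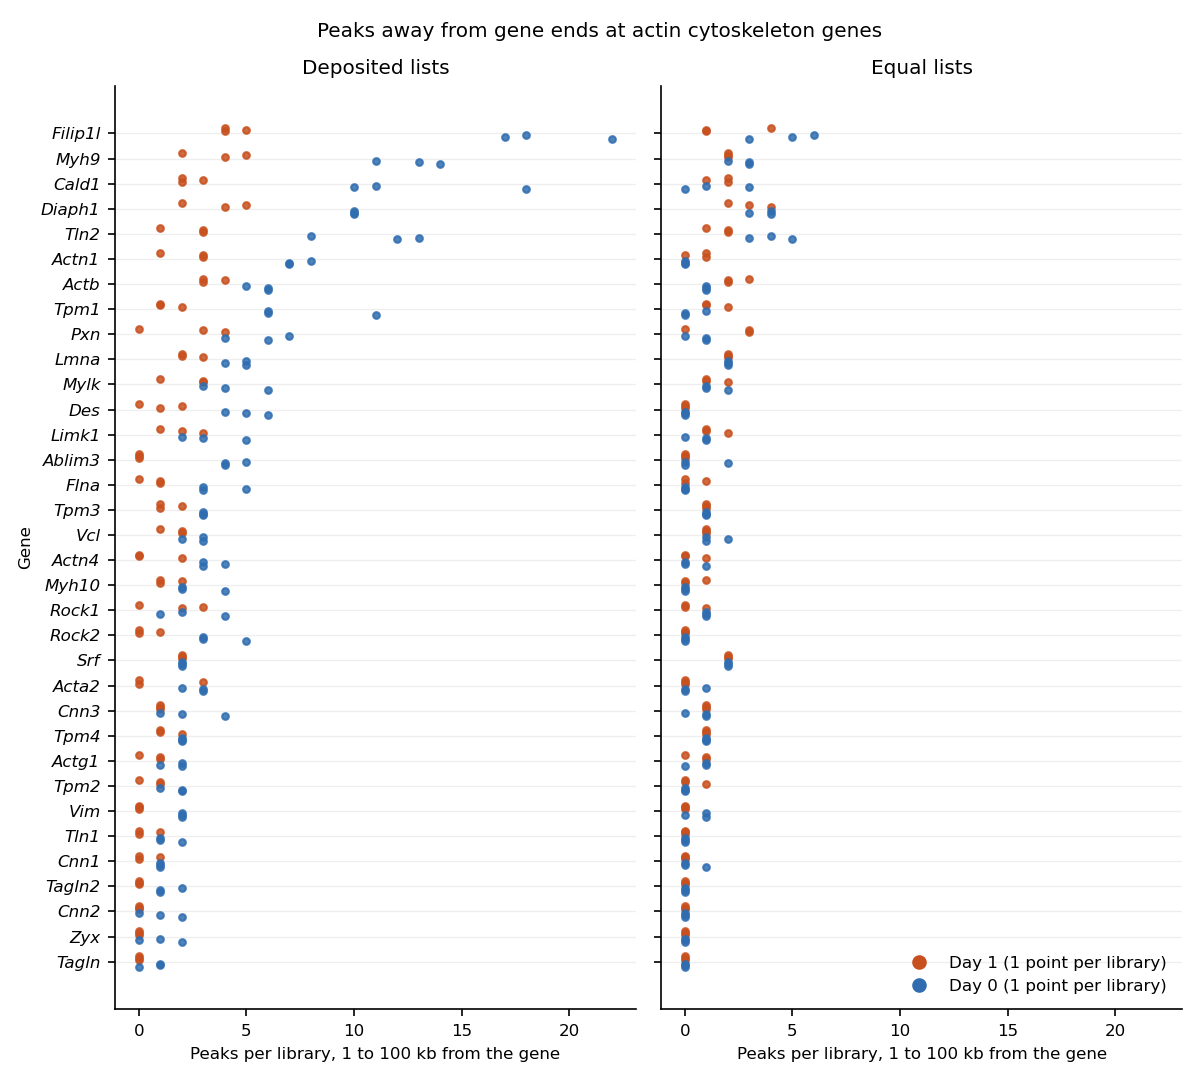
Distal peaks per library for each gene that had any, in the deposited lists (left) and the equal lists (right), with 1 point per library. In the deposited lists the Filip1l points lie at 4 to 5 on day 1 and 17 to 22 on day 0, and in the equal lists most genes have points of both days on the same values.

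Merging overlapping peaks gave 275 regions of the set in the deposited lists. Of these, 68 were called in every day 0 and no day 1 library (day 0 only, against 16.6% of all regions) and 0 were day 1 only (0.589% of all regions). At gene ends 13 of 44 regions were day 0 only, against 5.94%, and among distal regions 55 of 231, against 19.5%. Of 87 regions called in every day 0 library and projected to pass in all 3 day 1 libraries, 35 were called in none, against 29.2%. At gene ends that was 6 of 24, against 4.25%, and among distal regions 29 of 63, against 44%. The 35 lay nearest to Filip1l (6 regions), Tln2 (5), Diaph1 (4), Ablim3 (3), Myh9 (2) and Flna (2), with 1 each at 13 other genes.

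Equal lists held 86 regions of the set, of which 5 were day 0 only, against 8.05% of all regions, and 3 day 1 only, against 5.72%. The day 0 only regions lay at Filip1l, Tln2 and Diaph1, and none of the 5 had a day 1 peak of any strength. Inside Tln2, the gene of a second talin, chr9:67565842-67566376 had heights of 52, 60 and 42 fragments in the day 0 libraries and a fold enrichment of 19.4 ± 1.58 (SD, n = 3). It ranked within the top 4.45, 1.36 and 2.02% of peaks in day 0 replicates 1, 2 and 3. A second Tln2 region, chr9:67228914-67229609, had a fold enrichment of 13.3 ± 1.07. The Filip1l regions were chr16:57329041-57329447, 24.1 kb outside the gene, and chr16:57438319-57438605, inside it, with fold enrichments of 12.4 ± 0.804 and 12.8 ± 0.305. At Diaph1, chr18:37924195-37924569 had 12.2 ± 1.11 (SD, n = 3 each). Filip1l lies within the span of another gene, Cmss1, in the gene table, so its regions may belong to either.

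The day 1 only regions of the equal lists lay at the Cnn3 and Rock2 gene ends and inside Actb, at chr3:121426136-121427259, chr12:16894017-16894780 and chr5:142905733-142906205. All 3 also had a peak of lower rank in each day 0 library. At the Actb region the heights per 1000000 fragments were 6.71, 5.18 and 2.46 at day 1, against 3.27, 2.83 and 2.18 at day 0, so that day 1 replicate 3 lay within the day 0 range. Cnn3 and Rock2 heights on that scale overlapped between the days.

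**Figure D3:**
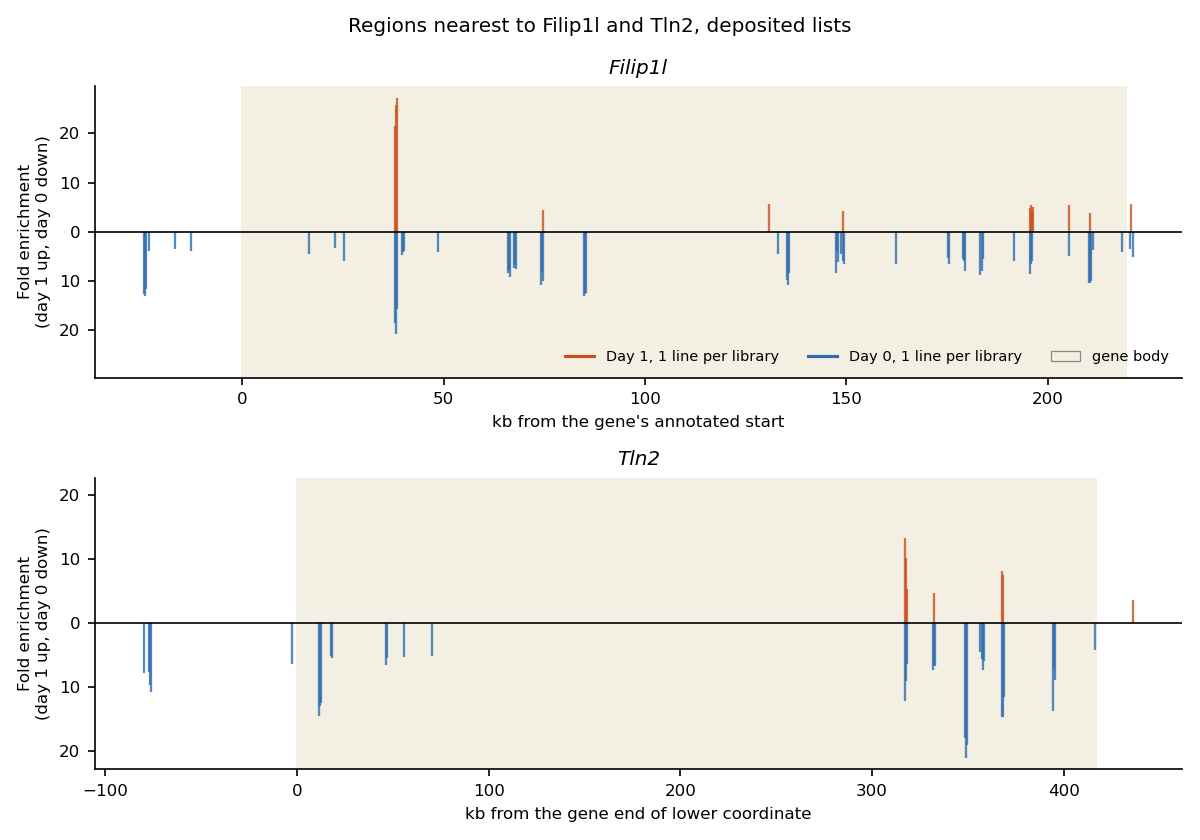
Fold enrichment of the regions nearest to Filip1l (top) and Tln2 (bottom) by distance in kb, with day 1 libraries drawn upward and day 0 libraries downward and the gene body shaded. A Filip1l region 38.3 kb from the gene start stands high in all 6 libraries, and the tallest Tln2 lines, with a mean fold enrichment of 19.4, are day 0 lines with no day 1 line opposite.

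Heights could be tested in the 9136 regions called in all 6 libraries, where each library was centred on its own median. On day 1, 667 of these regions were higher (7.3%) and 539 lower (5.9%) at an adjusted p under 0.05 by limma. The set had 33 such regions at 21 genes, of which 4 were higher, 4 lower and 25 did not pass. Their median log2 difference was -0.09, against 0.06 over all regions. All 8 that passed were distal. None of the 14 gene-end regions passed, and 0 had an unadjusted p under 0.05. Over all regions, 209 of 5539 at gene ends were higher and 70 lower, while 458 of 3597 distal regions were higher and 469 lower, so few gene-end regions passed in general. Heights of the 2 days did not overlap in 5 regions higher on day 1 (16.9% of all regions) and 7 lower (12.6%). A region had to be called on day 1 to be tested, so the gene ends without a day 1 call are not among them.

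The 4 regions that rose on day 1 lay at Filip1l, Actb, Tpm1 and Tln2. The Filip1l region, chr16:57391457-57391673, 38.3 kb inside the gene, stood at 4.28, 5.73 and 8.15 times the library median at day 1 and 2.31, 3.16 and 2.08 times at day 0. The lowest day 1 library exceeded the highest day 0 library, with a log2 difference of 1.24 (SE 0.242, adjusted p = 0.00202 by limma). The same gene thus held day 0 only regions and a region that rose. The Actb region inside the gene, 1.89 kb from its end, stood at 1.83, 1.32 and 1.38 at day 1, against 0.847, 0.719 and 0.833 at day 0, a log2 difference of 0.91 (adjusted p = 0.0054 by limma). Inside Tpm1, chr9:67043611-67044163 differed by 0.70 (adjusted p = 0.0389 by limma) without overlap. Inside Tln2, chr9:67534490-67534884 differed by 0.79 (adjusted p = 0.0471 by limma), and there the days overlapped.

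The 4 regions that fell lay at Vcl, Myh9 and Srf. The Vcl region, chr14:20891823-20892328, 37.3 kb outside the gene, stood at 0.944, 0.909 and 0.462 times the library median at day 1 and 1.55, 1.53 and 2.04 at day 0. The log2 difference was -1.21 (SE 0.254, adjusted p = 0.00367 by limma), while the Vcl promoter differed by -0.03 (SE 0.202). Inside Myh9, chr15:77800452-77801075 stood at 0.722, 1.09 and 1.31 at day 1, against 1.91, 2.19 and 2.13 at day 0, a log2 difference of -1.03 (adjusted p = 0.00437 by limma). A second Myh9 region, chr15:77836033-77836592, differed by -0.68 (adjusted p = 0.0312 by limma), and the Myh9 promoter by -0.06 (SE 0.195). The Srf region inside the gene stood at 1.39, 1.27 and 1.31 at day 1, against 2.00, 1.94 and 2.21 at day 0, a log2 difference of -0.63 (SE 0.188, adjusted p = 0.0336 by limma). In all 4 the days did not overlap. None of the 8 calls held when heights were scaled per 1000000 fragments, which left 38 higher and 121 lower of the 9136 regions and moved the median log2 difference of all regions to -0.15. On that scale the differences kept their direction, at -1.42 for Vcl, -1.25 and -0.89 for the Myh9 regions, -0.84 for Srf, 1.03 for Filip1l, 0.69 for Actb, 0.58 for Tln2 and 0.48 for Tpm1. The calls at Filip1l, Actb, Vcl and the first Myh9 region held with each library left out. The Srf call was lost without any 1 library other than day 1 replicate 1, with adjusted p of 0.0741 to 0.112 by limma. For the second Myh9 region it was lost without any 1 day 0 library or day 1 replicate 3 (adjusted p of 0.069 to 0.192 by limma). The Tpm1 call was lost without day 0 replicate 1 or 2 or day 1 replicate 1 or 3 (0.0591 to 0.166), and the Tln2 call without day 0 replicate 2 or 3 or day 1 replicate 1 or 2 (0.107 to 0.218). Log2 differences in the fits that lost a call were -0.68 to -0.52 at Srf, -0.73 to -0.43 at the second Myh9 region, 0.60 to 0.69 at Tpm1 and 0.54 to 0.78 at Tln2. The Tln2 call was also lost with quantile normalization (0.67, adjusted p = 0.137 by limma) and with regions of at most 2 kb (0.79, adjusted p = 0.0508 by limma).

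**Figure D4:**
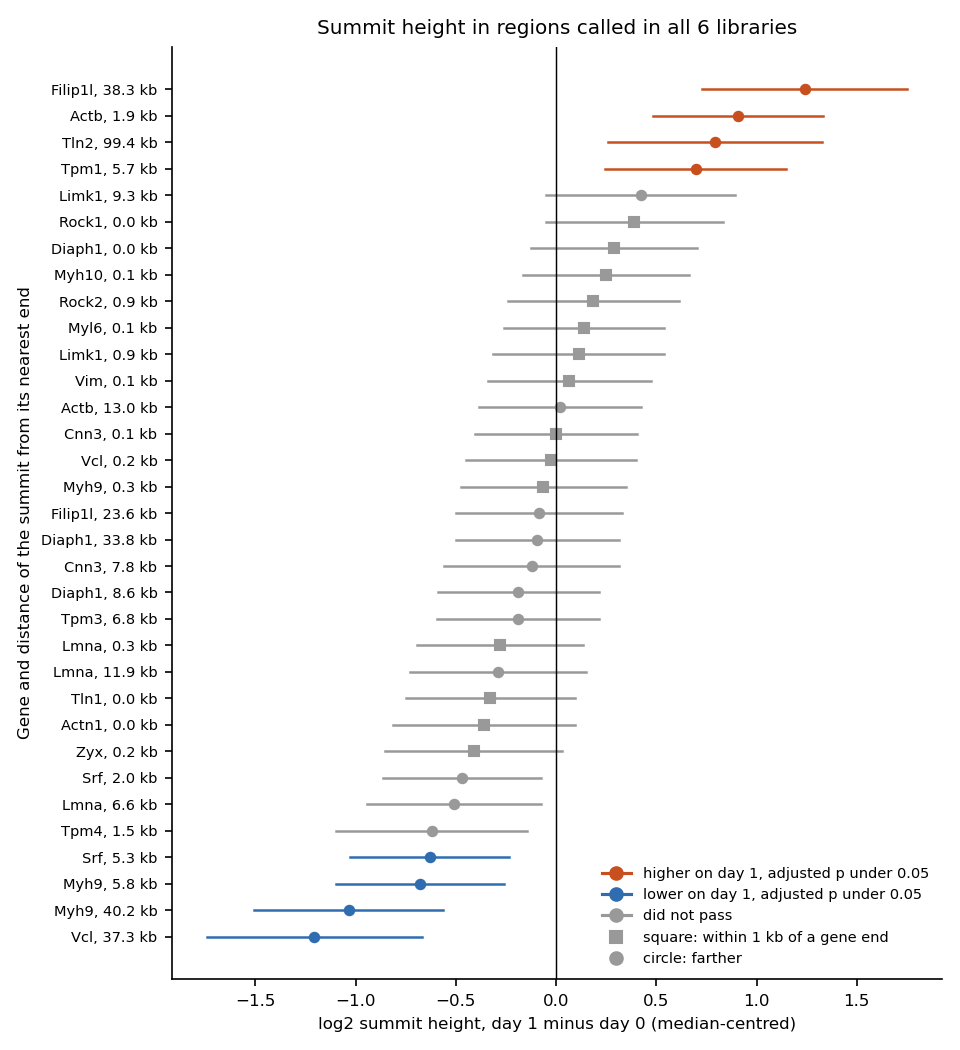
Log2 difference in summit height, day 1 minus day 0, in the 33 regions called in all 6 libraries, with 95% confidence intervals from limma. Squares are gene-end regions, circles distal regions, and coloured symbols passed an adjusted p under 0.05. The 8 coloured symbols are circles, from -1.21 at Vcl to 1.24 at Filip1l, and the squares lie between -0.41 and 0.39.

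Related genes outside the set were counted in 2 lists. Contractile and adhesion genes beyond the set had gene-end peaks at 22, 24 and 16 of 31 genes at day 1 and 28, 23 and 25 at day 0. In equal lists the order was the opposite, with 15, 14 and 16 at day 1, against 12, 10 and 9 at day 0, as it was for all coding genes. In the height fit 1 of their 34 shared regions rose and 4 fell. A region inside Msn, the gene of the membrane linker moesin, fell by 1.71 on the log2 scale (adjusted p = 0.000151 by limma). Regions inside Flnc, a muscle filamin, and inside Pdlim7, an adapter of the actin cytoskeleton, fell by 0.92 and 0.77 (adjusted p = 0.00581 and 0.0139 by limma). SRF partners and cofactors, of which 9 of 11 listed names were in the gene table, had 5, 5 and 4 genes called at day 1 and 6, 5 and 5 at day 0, and 3, 4 and 4 at day 1 against 3, 3 and 3 at day 0 in equal lists. None of their 10 shared regions passed in either direction, with a median log2 difference of 0.03.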

How the data were processed

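ATAC-seq peak lists of 3 day 1 and 3 day 0 libraries were analysed. The submitters' processing notes name mm10 and, among other tools, Bowtie2 2.4.4 and MACS2 2.2.7.1. Peaks were called per library with MACS2 at a q cutoff of 0.05, without a control, per the file headers. The deposited pileup is a signal in whole fragments, not scaled to depth. The deposited −log10 p and −log10 q columns and the authors' fold enrichment, a ratio, set that signal against local background. Peak width is in bp, per the file headers.

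Summits on chromosomes 1 to 19, X and Y were given to the nearest gene end (RefSeq, GRCm38.p6). Peaks overlapping by at least 1 bp were merged. Heights were fitted with limma 3.58.1 (R 4.3.3) on log2 pileup, Benjamini-Hochberg adjusted over 9136 regions. Counts of calls carry no test, since exact permutation of 3 libraries against 3 cannot go below p = 0.1. Tested on simulated data for that fit, 53.5% of 200 regions changed 2-fold and 89% of those changed 3-fold were recovered, and 0% at 1.5-fold. False calls numbered 3, 7 and 0 in that order. The simulation changed 200 of 9136 regions, fewer than passed in the data, so recovery in the data may differ. The gene set, lists and rules were chosen with earlier results of these data known. Genes named in full have gene-end calls that differ by 2 or more libraries, a day-only region in equal lists, a region that passed the fit, or no peak. Of the related lists, up to 3 genes each are named, those with the lowest adjusted p, and 1 list is not reported here. Other software was Python 3.11.15 with numpy 2.4.6, pandas 2.3.3 and scipy 1.17.1. Alternatives covered list length, ranking, distances, overlap, scaling and each library left out.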

Additional observations from a re-analysis of the deposited data

How the results depend on the processing

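Absence of a peak on day 1 cannot be read as closed chromatin, since the day 1 libraries were shallower and replicate 3 had fewer peaks for its fragments, and the cause of each change below was not tested. The difference in genes with a gene-end peak, day 1 minus day 0, was -11.7 and turned to 1.67 in equal lists and 3.33 in equal lists ranked by fold enrichment. It was -7.00 at promoter starts (2.33 there in equal lists), -1 in equal lists without day 1 replicate 3, and -12.8 to -10.3 with each library left out. The 6 genes called in no day 1 and every day 0 library became 0 in equal lists by either ranking, 1 in equal lists without day 1 replicate 3, and 3 after projection by library median heights. That projection gives day 1 replicate 3, the library of its day with the most fragments, the lowest heights, against a background scaled by fragment number. A projection of heights by fragment number was not tested for calls. The difference in distal peaks was -107 and became -2.67 in equal lists, -85.0 within 50 kb, and -7.84 per 1000000 fragments, which is another unit. Day 1 only regions numbered 0, and 3 in equal lists by either ranking, 5 in equal lists without day 1 replicate 3, and 0 to 1 with each library left out. Day 0 only regions numbered 68, and 5 in equal lists by either ranking, 21 in equal lists without day 1 replicate 3, and 35 after projection.

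Of the height tests, scaling per 1000000 fragments left 0 higher and 0 lower regions of the set, with their log2 differences from -1.42 at Vcl to 1.03 at Filip1l in the same direction as before, and 38 and 121 of all regions. A mean pileup of at least 20 left 329 regions higher. Leaving out each library gave 2 to 3 higher and 2 to 4 lower regions of the set, and 449 to 936 higher and 368 to 1077 lower of all. The lower count of 1077, against 539, came without day 1 replicate 3, which added regions to the fit (12469 tested). The labels do not say whether replicate numbers pair the libraries. After each day's mean was subtracted from every region's log2 height, the deviations of same-numbered libraries correlated at -0.036, 0.054 and 0.0081. Without day 1 replicate 3 in equal lists, the gene-end calls of Mylk, Tpm2 and Tpm4 turned toward day 1, by 50, 16.7 and 50 percentage points of libraries.

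Some regions that did not pass the fit changed sign, and none passed after the change. Per 1000000 fragments the log2 difference was -0.15 at the Vim end, -0.028 at Rock2, -0.21 at Cnn3, -0.072 at Myl6, -0.10 at Limk1 and -0.19 at the Actb region 13.0 kb away. Quantile normalization gave -0.031 at the Cnn3 end and -0.058 at that Actb region, regions of at most 2 kb gave -0.0055 at the Cnn3 end, a pseudocount of 1 gave -0.0026 at that Actb region, and a mean pileup of at least 20 gave 0.0097 at the Vcl promoter. With each library left out, the ranges were -0.15 to 0.11 at the Vcl promoter, -0.16 to 0.025 at the internal Filip1l start, -0.16 to 0.039 at the Myh9 end, -0.066 to 0.094 at the Cnn3 end, -0.29 to 0.00999 at the Cnn3 region 7.79 kb away and -0.053 to 0.22 at that Actb region. With the replicate block, 688 regions were higher and 565 lower, with 4 and 4 of the set.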
